A study of Mus musculus with 16 samples.

Results

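The genes described here are 45 genes of the lysosome: 11 proteases, 11 glycosidases, 4 sulfatases, 5 lipid enzymes, 4 lumenal cofactors, 8 membrane proteins and 2 transcription factors that drive lysosomal genes. They were chosen by name as known lysosomal genes and were found on the arrays through the accession of each probe. All 45 were among the 14574 genes tested, and 57 probes stood for them. The RNA came from polysomes of mouse kidney glomeruli and was hybridised to 16 microarrays of 1 colour, 4 in each of 4 groups. The glomerular group is polysome RNA of uninjured Nphs1-RiboTag mice taken without precipitation, so it holds every cell type of the glomerulus, podocytes included. Tubule markers were read in it too, as given below. The normal podocyte group is RNA of uninjured Nphs1-RiboTag mice from polysomes pulled down with HA antibody, where Cre under the control of Nphs1 restricts the tag to podocytes. The other two groups are podocyte polysome RNA of Nphs1-RiboTag-NEP25 mice taken 4 or 7 days after a single tail vein dose of LMB2, 0.625 ng per g of body weight. In NEP25 mice the podocytes display human CD25, the target of the immunotoxin LMB2. All mice had the C57BL/6N background, and the labels give no age or sex. The series text names no NEP25 allele for the uninjured mice, and NEP25 mice without LMB2 were not analysed here. Nothing in the labels tells whether arrays are separate animals, so p-values measure only the spread between samples, which may be technical.

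Lysosomes are acidic organelles that break down proteins, glycans and lipids with a large set of acid hydrolases. Most of these enzymes are tagged with mannose 6-phosphate in the Golgi and delivered by mannose 6-phosphate receptors, and small proteins of the lumen such as the saposins and the GM2 activator present lipids to the enzymes. TFEB and TFE3 are basic helix-loop-helix factors that are held in the cytosol by mTORC1 and, when released, enter the nucleus and bind CLEAR elements in promoters of lysosomal genes. The podocyte is a long-lived epithelial cell in which inherited lysosomal defects show clearly: globotriaosylceramide is stored there in Fabry disease, a defect of Gla, and loss of Scarb2 leads to glomerulosclerosis.

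A level below is the log2 processed intensity of a gene's probe minus the log2 of the 75th percentile of that array, so 0 is the 75th percentile. Levels compare arrays for 1 probe and cannot be set against those of another probe. A change is a difference of group means on this log2 scale with limma's standard error (SE), with 4 arrays in each group. A gene was called higher or lower when its limma p-value, adjusted by Benjamini-Hochberg over the 14574 genes, was under 0.05. Well above background were 49.3% to 57.5% of spots per array, 44 members were so on all 16 arrays and Ctss on 15, and no spot was saturated. The labelled cell type was borne out by its markers. All 10 podocyte markers were higher in podocyte than in glomerular RNA (51.6% of all genes) and all 10 endothelial markers lower (27.6%). All 10 proximal tubule markers and 7 of 8 distal nephron markers were also lower in podocyte than in glomerular RNA. The part of tubule RNA in the glomerular group was not tested. All uninjured arrays lay on 1 slide and all LMB2 arrays on another, so for day 4 and day 7 against normal the slide, its scan, the NEP25 allele and LMB2 cannot be told apart. Podocytes against glomeruli, and day 7 against day 4, are comparisons within a slide.

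Promoter sequences are shown for 4 members because the CLEAR element bound by TFEB and TFE3 contains the letters CACGTG, whose presence is set beside the members' calls. The RefSeq promoter table (build GRCm38.p6) holds windows from 250 bases before to 50 bases after the start site for 41 of the 45 members. CACGTG, which reads the same on both strands, occurred in at least 1 window of 14 of these 41 members (34.1%) and of 8.09% of the 27025 genes in the table, or in 28.6% of the members' 49 windows and 7.15% of all 32851 windows. The longer TCACGTGA, which contains it, occurred in 5 members (12.2%) and 1.12% of genes, and the full CLEAR palindrome, which contains both, in Cln3 alone among the members (2.44%) and in 0.370% of genes. Each line gives the 160 bases before the start site, 5′ to 3′, with CACGTG in capitals. Lamp1 is at chr8:13159001-13159160, plus strand, Mcoln1 at chr8:3500359-3500518, plus strand, Naglu at chr11:101069934-101070093, plus strand and Cln3 at chr7:126583237-126583396, minus strand.
Lamp1: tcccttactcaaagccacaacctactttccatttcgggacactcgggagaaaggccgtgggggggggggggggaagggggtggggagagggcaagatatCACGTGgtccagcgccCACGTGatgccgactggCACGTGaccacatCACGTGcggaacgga
Mcoln1: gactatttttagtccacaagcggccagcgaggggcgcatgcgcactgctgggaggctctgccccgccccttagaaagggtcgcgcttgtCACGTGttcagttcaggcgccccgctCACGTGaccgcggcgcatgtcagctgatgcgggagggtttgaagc
Naglu: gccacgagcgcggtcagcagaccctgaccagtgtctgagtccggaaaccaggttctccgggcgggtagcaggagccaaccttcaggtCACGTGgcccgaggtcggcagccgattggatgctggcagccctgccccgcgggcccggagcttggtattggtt
Cln3: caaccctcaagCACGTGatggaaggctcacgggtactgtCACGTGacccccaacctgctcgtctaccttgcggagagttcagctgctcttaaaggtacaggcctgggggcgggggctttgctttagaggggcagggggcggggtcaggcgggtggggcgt
Lamp1 holds 4 copies that start 61, 45, 28 and 15 bases before the start site, Mcoln1 holds 2 that start 71 and 45 bases before it, Naglu 1 at 73 bases and Cln3 2 at 149 and 121 bases. The other members with the letters in a window were Ctsa, Ctsd and Gla with 2 copies each and Glb1, Gaa, Sgsh, Lgmn, Ctsl, Arsa and Ctsf with 1 each. The match is a description of letters in a window and not of binding.

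In uninjured mice, 26 of the 45 members were higher in podocyte than in glomerular polysome RNA, led by Galc, Ctsh and Ctsl, and 9 were lower, led by Ctss, Lgmn and Ctsk. Of all 14574 genes, 51.6% were called higher and 27.6% lower, and of the 12219 genes above background on all 16 arrays 59.9% were higher and 21.1% lower. The members' shares of 57.8% higher and 20% lower lie near those backgrounds, and their median change of 0.45 lies near the 0.38 of all genes. All 4 podocyte arrays stood above all 4 glomerular arrays for 26 members and below for 5, against 47.8% and 25.3% of all genes.

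After LMB2 more lysosomal genes fell than rose at both times, and Psap, the precursor of the saposins, fell the most. At day 4, 20 members fell and 2 rose (Hexa and Tpp1), with a median change of -0.30, while 21.6% of all genes were called lower and 12.1% higher with a median of -0.14. At day 7, 27 members fell and 5 rose (Hexa, Ctsk, Cd63, Tpp1 and Cln3), with a median of -0.45, while 36.3% of all genes were called lower and 22.0% higher with a median of -0.14. The members' shares called lower, 44.4% at day 4 and 60% at day 7, exceeded those of all genes and of the genes above background on all 16 arrays (26.1% and 42.5%), and the shares called higher, 4.44% and 11.1%, were under theirs (9.93% and 19.4%). This is a description of the list and was not tested as a set. The counts rest on the brightest probe of each gene. Of the 11 members with several probes, 5 had probes that differed in sign at day 4 and 5 at day 7. The 2 rises at day 4 became 1 without normal podocyte replicate 2, 3 or 4 or day 4 replicate 2, 3 or 4. Day 4 and day 7 share the 4 normal arrays, so their counts are not independent of each other. LMB2 arrays lay below all normal arrays for 20 members at day 4 and 25 at day 7 (22.4% and 32.6% of all genes) and above them for 2 and 6 members (11.7% and 17.9%).

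Between day 4 and day 7, on the same slide, 10 members fell, 5 rose and 30 were not called, with a median of -0.11 against -0.04 over all genes. The background was 18.6% of all genes lower and 14% higher. Day 7 lay below all day 4 arrays for 11 members and above for 6, against 19.8% and 13.4% of all genes. Each level is scaled within its array, so a lower level is relative to the array's other signals and does not measure podocyte number. Whether a fall reflects less of the mRNA on ribosomes per podocyte or a larger part of RNA from other cells was not tested. The 5 rises became 3 without day 4 replicate 4, day 7 replicate 2 or day 7 replicate 3.

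Calls were set beside the promoter letters for the 41 members with a window. Of the 14 members with CACGTG, 9 were higher and 2 lower in podocytes, 0 higher and 6 lower at day 4, 1 higher and 9 lower at day 7, and 1 higher and 5 lower from day 4 to day 7. Of the 27 members without it, the counts were 13 and 7 in podocytes, 2 and 11 at day 4, 4 and 15 at day 7, and 4 and 5 from day 4 to day 7. The shares of all genes given above are the background of these counts, and the difference between members with and without the letters was not tested.

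On 3 podocyte arrays proximal tubule markers were high, and their part in these counts was checked by leaving the arrays out. The mean of 10 proximal tubule markers, set to 0 at the mean of normal podocytes, stood at 1.13 on normal podocyte replicate 4, 1.54 on day 4 replicate 1 and 2.31 on day 7 replicate 4, and between -1.78 and -0.10 on the other 9 podocyte arrays. Without these 3 arrays, 19 members fell and 2 rose at day 4, and 24 fell and 5 rose at day 7. With the median of all tested genes set to 0 on each array, 14 fell and 3 rose at day 4, and 24 fell and 7 rose at day 7. The split of all genes in that setting differs from the main one and is given in the last section. No share of all genes is given for the fit without the 3 arrays, so its counts have no background of their own.

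**Figure D1:**
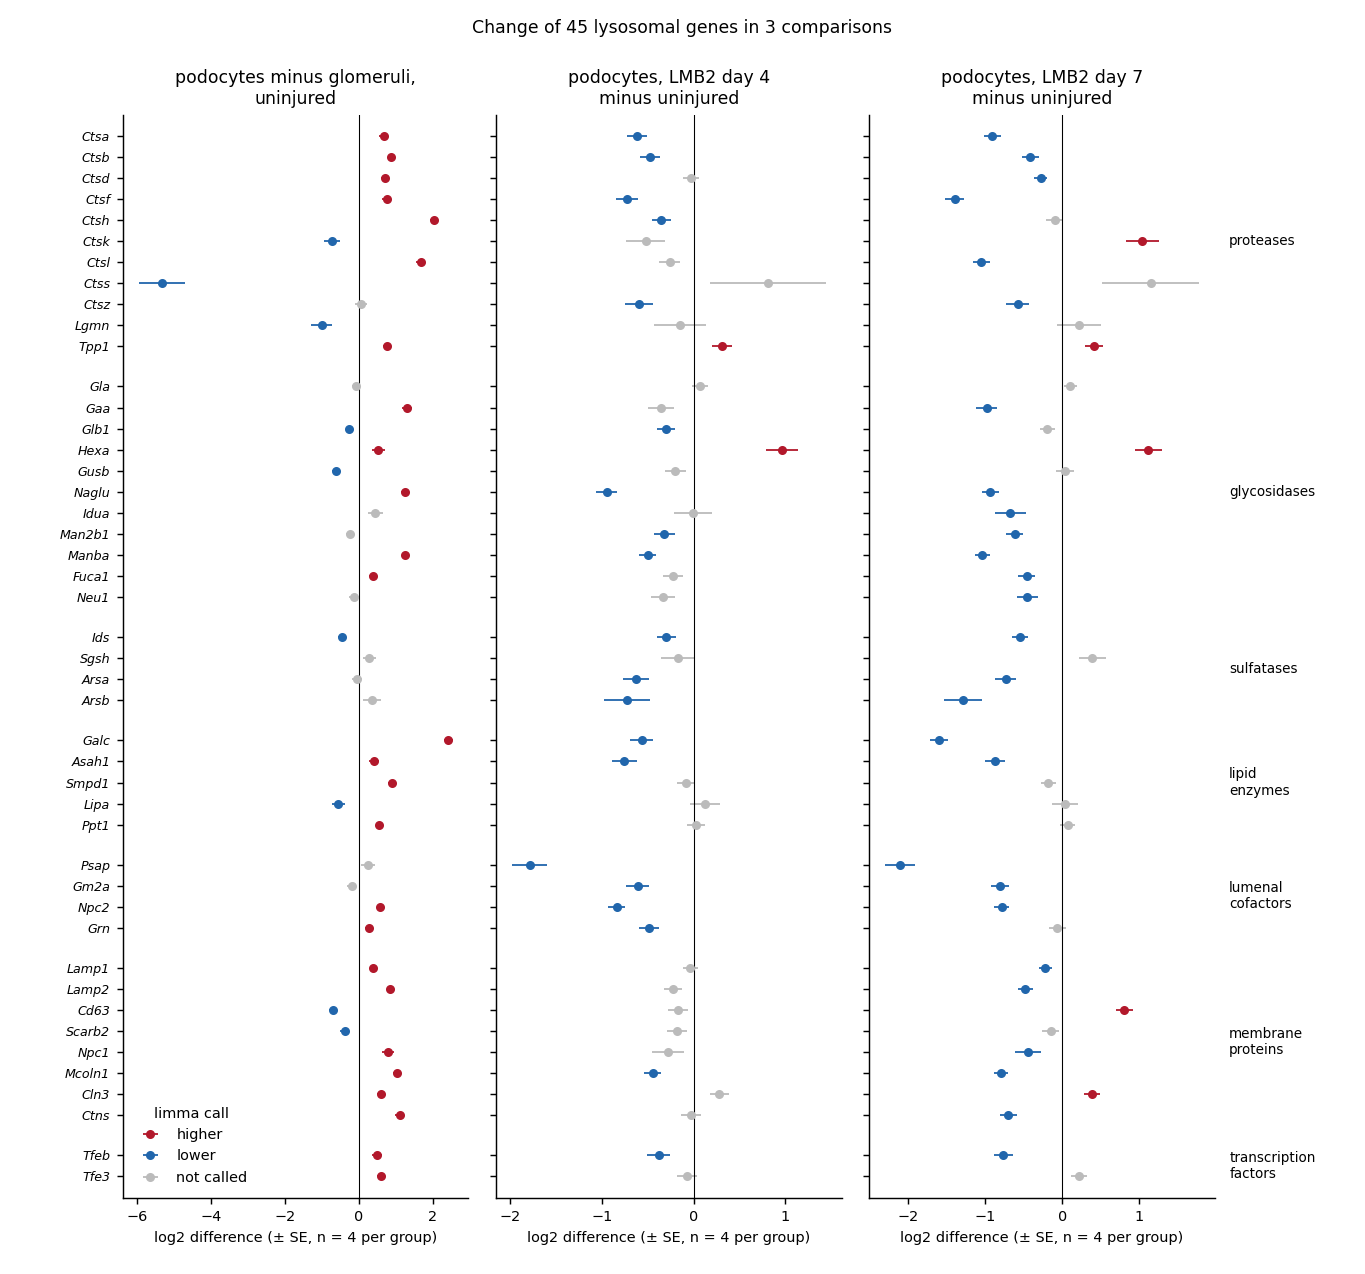
Change of each of the 45 lysosomal genes in 3 comparisons, on a log2 scale with limma's SE (n = 4 arrays per group), grouped by role and coloured by call. Psap lies furthest left at day 4 and day 7, at -1.79 and -2.10, and Hexa lies right of 0 in all 3 panels.

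Among the 11 proteases, 7 were higher in podocytes and 3 lower, 1 rose and 5 fell at day 4, and 2 rose and 6 fell at day 7. The shares higher and lower in podocytes, 63.6% and 27.3%, were near those of all genes (51.6% and 27.6%), and 45.5% and 54.5% were lower at day 4 and day 7 (21.6% and 36.3% of all genes). The same shares of all genes are the background of every role, and roles of 8 or fewer members give only coarse counts. Ctsh, a cysteine cathepsin with aminopeptidase activity, stood at 5.01, 5.05, 5.26 and 5.0 on the glomerular arrays and at 7.23, 7.04, 7.26 and 6.96 on the normal podocyte arrays. It stood at 6.73, 7.01, 6.76 and 6.58 at day 4 and at 6.88, 7.04, 7.09 and 7.09 at day 7. The glomerular arrays were far below all podocyte arrays, while the podocyte groups overlapped. Ctsh was 4.12-fold higher in podocytes (change 2.04 ± 0.11, limma adjusted p = 8.86e-10), fell at day 4 (-0.35 ± 0.11, adjusted p = 0.0202) and was not called at day 7 (-0.10). The day 4 call ended without normal podocyte replicate 1 or 3 or day 4 replicate 4 (-0.32 to -0.29).

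Ctsl, an endopeptidase that has been linked to cleavage of podocyte cytoskeletal proteins, stood at 7.22, 7.23, 7.14 and 6.91 in glomeruli and 9.04, 8.88, 8.66 and 8.63 in normal podocytes. After LMB2 it stood at 8.48, 8.70, 8.55 and 8.44 at day 4 and 7.96, 7.65, 7.62 and 7.79 at day 7. Day 4 overlapped normal podocytes, and every day 7 array lay below every day 4 array. Its changes were 1.68 ± 0.12 in podocytes against glomeruli, -0.26 ± 0.12 at day 4, which was not called, and -1.05 ± 0.12 at day 7 (limma adjusted p = 3.35e-06), with -0.79 ± 0.12 from day 4 to day 7.

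Ctsf, another cysteine cathepsin, read 2.04, 1.91, 1.79 and 1.96 in glomeruli and 2.96, 2.58, 2.62 and 2.60 in normal podocytes. It read 2.06, 2.22, 1.83 and 1.75 at day 4 and 1.46, 1.11, 1.24 and 1.37 at day 7. The 3 podocyte groups did not overlap, and day 7 lay below the glomerular arrays as well. Ctsf fell by 1.65-fold at day 4 (-0.72 ± 0.12) and 2.63-fold at day 7 (-1.40 ± 0.12), and its change from day 4 to day 7 was -0.67 ± 0.12.

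Ctsd, the main aspartic protease of the lysosome, read 6.12, 6.02, 6.12 and 6.06 in glomeruli and 6.97, 6.83, 6.65 and 6.68 in normal podocytes. After LMB2 the levels were 6.67, 6.80, 6.81 and 6.73 at day 4 and 6.54, 6.32, 6.62 and 6.53 at day 7. Normal and day 4 arrays overlapped, and day 7 lay below both groups. Ctsd was 0.70 ± 0.09 higher in podocytes, differed by -0.03 ± 0.09 at day 4 without a call, and fell by a small amount at day 7 (-0.28 ± 0.09, limma adjusted p = 0.0138; against day 4 -0.25 ± 0.09, adjusted p = 0.0428). The call against day 4 ended without any of day 4 replicates 2, 3 and 4 and day 7 replicates 1, 2 and 4 (-0.26 to -0.19). The other probe of Ctsd was higher in podocytes (0.87) and was called in no comparison after LMB2 (-0.15 at day 7).

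Tpp1, the tripeptidyl peptidase missing in a childhood neuronal ceroid lipofuscinosis, went the other way. It stood at 2.43, 2.47, 2.49 and 2.38 in glomeruli, 3.34, 3.26, 3.07 and 3.16 in normal podocytes, 3.34, 3.50, 3.48 and 3.74 at day 4 and 3.71, 3.51, 3.88 and 3.38 at day 7. Day 7 lay above all normal podocyte arrays, and day 4 overlapped them at a shared edge. Tpp1 was 0.76 ± 0.11 higher in podocytes and rose by 0.31 ± 0.11 at day 4 (limma adjusted p = 0.0476) and 0.41 ± 0.11 at day 7 (adjusted p = 0.0057). The day 4 call ended without any of replicates 2, 3 and 4 of either group (0.23 to 0.32).

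Ctss, a cathepsin of antigen-presenting cells, had the widest gap between glomeruli and podocytes among the members. It stood at 1.70, 1.94, 3.30 and 1.31 in glomeruli and -3.63, -3.08, -1.84 and -4.53 in normal podocytes, where it was well above background on 3 of 4 arrays. The LMB2 arrays read -0.76, -2.46, -2.72 and -3.88 at day 4 and -2.37, -1.72, -2.10 and -2.30 at day 7. All podocyte arrays lay below all glomerular arrays, and the 3 podocyte groups overlapped. Ctss was 40.2-fold lower in podocytes (-5.33 ± 0.63) and was called at neither time (0.81 ± 0.63 at day 4 and 1.15 ± 0.63 at day 7). Its highest LMB2 value came from day 4 replicate 1, where the mean of 12 leukocyte markers also stood at 1.21 against -0.27 to 0.28 on the other day 4 arrays. Without day 4 replicate 1 and normal podocyte replicate 4, the day 4 change of Ctss was -0.17 and not called.

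Lgmn, an asparaginyl endopeptidase that trims other cathepsins and is abundant in proximal tubule cells, read 6.18, 5.89, 5.54 and 6.18 in glomeruli and 4.69, 5.15, 4.79 and 5.14 in normal podocytes. It read 5.53, 4.59, 4.51 and 4.56 at day 4 and 4.63, 4.97, 5.03 and 6.01 at day 7. The high arrays, day 4 replicate 1 and day 7 replicate 4, were those highest in proximal tubule markers. Lgmn was 2-fold lower in podocytes (-1.0 ± 0.29, limma adjusted p = 0.00491) and was called neither at day 4 (-0.14 ± 0.29) nor at day 7 (0.22 ± 0.29). The part of tubule RNA in these values was not tested.

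Ctsk, a collagen-degrading cathepsin best known from osteoclasts and fibroblasts, read 0.24, 0.74, 1.23 and 0.01 in glomeruli and -0.03, -0.33, 0.19 and -0.46 in normal podocytes. It read -0.52, -0.67, -0.73 and -0.79 at day 4 and 1.0, 0.87, 0.78 and 0.89 at day 7. Day 4 lay below and day 7 above all normal podocyte arrays. Ctsk was lower in podocytes than in glomeruli (-0.71 ± 0.21), was not called at day 4 (-0.52 ± 0.21), rose 2.05-fold at day 7 (1.04 ± 0.21, limma adjusted p = 0.000792) and rose 2.95-fold from day 4 to day 7 (1.56 ± 0.21, adjusted p = 0.000117).

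Of the remaining proteases, Ctsa, a carboxypeptidase that also stabilises Glb1 and Neu1, was higher in podocytes (0.68 ± 0.11) and fell at day 4 (-0.62 ± 0.11) and day 7 (-0.91 ± 0.11). Its other probe was called the same way with larger changes in podocytes (1.46) and at day 7 (-1.64), and was also lower from day 4 to day 7 (-0.92), where the probe used was not called (-0.29). Ctsb, a cysteine cathepsin that cuts as an endopeptidase and a carboxypeptidase, was likewise higher in podocytes and fell at both times (0.89 ± 0.10, -0.48 ± 0.10 and -0.41 ± 0.10). Ctsz, a carboxypeptidase, did not differ by call between podocytes and glomeruli (0.06) and fell at day 4 (-0.59 ± 0.16) and day 7 (-0.58 ± 0.16).

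Among the 11 glycosidases, 5 were higher in podocytes and 2 lower, 1 rose and 4 fell at day 4, and 1 rose and 7 fell at day 7. The share higher in podocytes, 45.5%, was under the 51.6% of all genes, and 36.4% and 63.6% were lower at day 4 and day 7, against 21.6% and 36.3%. Naglu, which cleaves heparan sulfate and is lacking in Sanfilippo syndrome, stood at 2.04, 2.15, 2.13 and 1.95 in glomeruli and 3.52, 3.54, 3.14 and 3.07 in normal podocytes. After LMB2 it stood at 2.34, 2.55, 2.32 and 2.26 at day 4 and 2.49, 2.34, 2.31 and 2.39 at day 7. The LMB2 groups overlapped each other and lay between the glomerular and the normal podocyte arrays without touching either. Naglu was 2.38-fold higher in podocytes (1.25 ± 0.11) and fell at day 4 (-0.95 ± 0.11, limma adjusted p = 1.90e-05) and day 7 (-0.93 ± 0.11, adjusted p = 7.71e-06).

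Hexa, the alpha subunit of hexosaminidase A that degrades GM2 ganglioside, rose at both times. It stood at 3.88, 4.02, 4.08 and 3.73 in glomeruli, 4.67, 4.57, 4.47 and 4.14 in normal podocytes, 5.07, 5.15, 5.64 and 5.84 at day 4 and 5.57, 5.55, 5.86 and 5.35 at day 7. All 8 LMB2 arrays were above all 8 uninjured arrays. Hexa rose 1.95-fold at day 4 (0.96 ± 0.18, limma adjusted p = 0.000854) and 2.17-fold at day 7 (1.12 ± 0.18, adjusted p = 8.08e-05), and was 0.53 ± 0.18 higher in normal podocytes than in glomeruli. Gm2a, the activator that presents GM2 to the enzyme, was not called in podocytes against glomeruli (-0.19) and fell at day 4 (-0.61 ± 0.12) and day 7 (-0.81 ± 0.12).

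Manba, which removes beta-linked mannose, was higher in podocytes (1.26 ± 0.10) and fell at day 4 (-0.50 ± 0.10), day 7 (-1.03 ± 0.10) and between them (-0.53 ± 0.10). Gaa, the glycogen-degrading glucosidase lacking in Pompe disease, was higher in podocytes (1.32 ± 0.14), was not called at day 4 (-0.36) and fell at day 7 (-0.98 ± 0.14) and between the times (-0.62 ± 0.14), while its other probe was called at neither (-0.75 and -0.79). Idua, which cleaves dermatan and heparan sulfate, was called neither in podocytes (0.45) nor at day 4 (-0.01) and fell at day 7 (-0.67 ± 0.20) and between the times (-0.67 ± 0.20). Its other probe rose at day 4 (0.52) and was not called at day 7 (0.17). Man2b1, which removes alpha-linked mannose, fell at day 4 (-0.32 ± 0.11) and day 7 (-0.62 ± 0.11). Fuca1, the fucosidase, was higher in podocytes (0.40 ± 0.11) and fell at day 7 (-0.46 ± 0.11) by both probes, and Neu1, the sialidase, fell at day 7 (-0.45 ± 0.13). Glb1, the beta-galactosidase, was lower in podocytes (-0.25 ± 0.10) and fell at day 4 (-0.30 ± 0.10), and Gusb, the beta-glucuronidase, was lower in podocytes (-0.61 ± 0.12) and called at neither time. Gla, the enzyme of Fabry disease, was called in none of the comparisons, with changes of -0.08, 0.07, 0.10 and 0.03 and an SE of 0.09. Replicate numbers were taken to pair the normal podocyte and glomerular arrays, which the labels do not state. With the number as a block Glb1 was not called (-0.25, limma adjusted p = 0.0556) while Idua (0.45, adjusted p = 0.0288) was.

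Some of these small changes rested on single arrays. The podocyte call of Glb1 ended without normal podocyte replicate 4 or glomerular replicate 1 or 4 (-0.23 to -0.19), and its day 4 call without normal podocyte replicate 1, 2 or 3 or day 4 replicate 3 or 4 (-0.30 to -0.24). The day 4 call of Man2b1 ended without normal podocyte replicate 1 or 2 or day 4 replicate 2, 3 or 4 (-0.32 to -0.26). The fall of Idua between the times was not called without day 4 replicate 2 or day 7 replicate 3 or 4 (-0.62 to -0.55).

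By the probe used, none of the 4 sulfatases was higher in podocytes, 3 fell at day 4 and 3 at day 7. Ids, the iduronate sulfatase, was lower in podocytes (-0.45 ± 0.10) and fell at day 4 (-0.30 ± 0.10) and day 7 (-0.54 ± 0.10). Arsa, which desulfates sulfatide with the help of saposin B, was not called between podocytes and glomeruli (-0.05) and fell at day 4 (-0.63 ± 0.14) and day 7 (-0.73 ± 0.14). Arsb, which acts on dermatan and chondroitin sulfate, fell at day 4 (-0.73 ± 0.25) and day 7 (-1.28 ± 0.25), while its other probe changed by 0.07 and 0.17 and was not called. The day 4 call ended for Ids without normal podocyte replicate 1 or 3 or day 4 replicate 1, 3 or 4 (-0.30 to -0.25), and for Arsb without any normal podocyte array or day 4 replicate 2 or 4 (-0.77 to -0.52).

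Sgsh, the sulfamidase that acts on heparan sulfate, read 5.85, 5.53, 6.05 and 5.65 in glomeruli and 5.83, 5.86, 6.39 and 6.14 in normal podocytes. It read 5.90, 5.90, 5.93 and 5.78 at day 4 and 5.96, 6.50, 6.88 and 6.44 at day 7. Day 7 lay above day 4 on all arrays and overlapped normal podocytes. Sgsh was not called against normal podocytes at either time (-0.18 and 0.39) and rose from day 4 to day 7 (0.57 ± 0.18, limma adjusted p = 0.0244). Its other probe gave the opposite direction, -0.53 from day 4 to day 7 and -0.85 at day 7 against normal, both called lower, and it was called higher in podocytes (1.15, limma adjusted p = 2.77e-07). The rise ended without day 4 replicate 4 or day 7 replicate 2 or 3 (0.42 to 0.55). In podocytes against glomeruli (0.29) it was not called without the replicate block and was called with it (0.29, adjusted p = 0.0458).

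Among the 5 lipid enzymes, 4 were higher in podocytes, and Galc and Asah1 fell at day 4 and at day 7. Galc, the galactosylceramidase lacking in Krabbe disease, read -0.01, -0.02, 0.11 and -0.16 in glomeruli and 2.64, 2.34, 2.32 and 2.31 in normal podocytes. It read 2.01, 1.99, 1.80 and 1.55 at day 4 and 0.78, 0.66, 1.05 and 0.73 at day 7. The 4 groups formed separate steps with no overlap. Galc was 5.37-fold higher in podocytes (2.42 ± 0.12, limma adjusted p = 6.97e-10), the largest rise over glomeruli among the members, and fell 1.48-fold at day 4 (-0.57 ± 0.12) and 3.03-fold at day 7 (-1.60 ± 0.12), with -1.03 ± 0.12 between the times.

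Asah1, the acid ceramidase, was higher in podocytes (0.40 ± 0.13) and fell at day 4 (-0.75 ± 0.13) and day 7 (-0.87 ± 0.13), while its other probe changed by 0.07 and 0.23 without a call. Smpd1, the acid sphingomyelinase, and Ppt1, a palmitoyl thioesterase, were higher in podocytes (0.90 ± 0.10 and 0.56 ± 0.10) and were called at neither time. Lipa, the acid lipase for cholesteryl esters, was lower in podocytes (-0.55 ± 0.17) and was called at neither time.

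All 4 lumenal cofactors fell at day 4, and all but Grn fell at day 7. Psap encodes prosaposin, which is cut into 4 saposins that help Galc, Arsa, glucocerebrosidase and other enzymes reach their lipids. It stood at 5.85, 5.96, 6.03 and 5.81 in glomeruli and 6.41, 6.28, 6.13 and 5.88 in normal podocytes. It stood at 4.92, 4.48, 3.92 and 4.23 at day 4 and 4.28, 3.66, 4.03 and 4.31 at day 7. All 8 LMB2 arrays lay below all 8 uninjured arrays, and the glomerular and normal podocyte arrays overlapped. Psap fell 3.45-fold at day 4 (-1.79 ± 0.19, limma adjusted p = 8.28e-06) and 4.3-fold at day 7 (-2.10 ± 0.19, adjusted p = 6.45e-07), and was called neither between podocytes and glomeruli (0.26 ± 0.19) nor between the times (-0.32 ± 0.19).

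Psap was the 8th lowest change of 12418 genes above background on all 8 arrays at day 4 and the 54th lowest of 12432 at day 7. Day 4 replicate 1 and normal podocyte replicate 4, which were high in tubule markers, held the values closest to each other, and without them the day 4 change was -2.06. A single probe stood for Psap, so no other probe bears on this fall.

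Npc2, a cholesterol carrier of the lumen, read 4.18, 4.12, 4.43 and 4.12 in glomeruli and 5.02, 4.79, 4.76 and 4.62 in normal podocytes. It read 3.88, 4.04, 3.96 and 3.95 at day 4 and 3.94, 4.03, 4.05 and 4.03 at day 7. The LMB2 arrays were tightly grouped and all below the glomerular and normal podocyte arrays. Npc2 was 0.59 ± 0.10 higher in podocytes and fell at day 4 (-0.84 ± 0.10, limma adjusted p = 1.22e-05) and day 7 (-0.78 ± 0.10, adjusted p = 8.06e-06). Grn, the precursor of granulins and a binding partner of prosaposin, was slightly higher in podocytes (0.28 ± 0.11), fell at day 4 (-0.49 ± 0.11), was not called at day 7 (-0.06) and rose from day 4 to day 7 (0.42 ± 0.11). Its podocyte call ended without replicate 1 or 2 of normal podocytes or 1 or 4 of glomeruli (0.23 to 0.26), and its sign turned under quantile normalization (-0.07, limma adjusted p = 0.60).

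**Figure D2:**
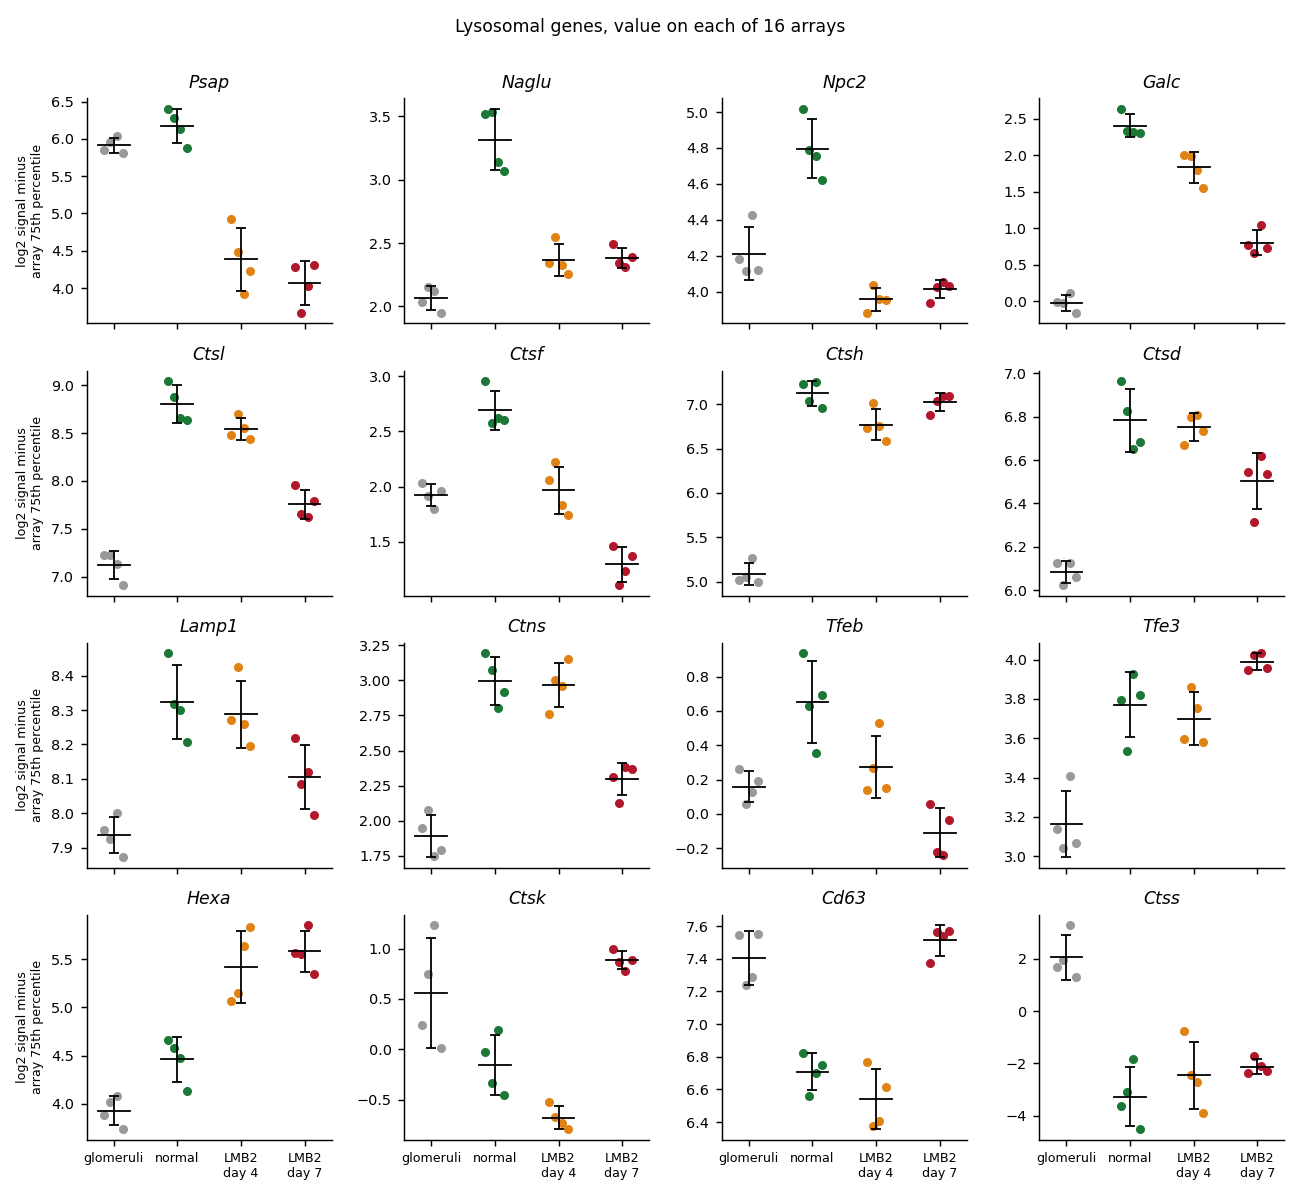
Level on each of the 16 arrays for 16 lysosomal genes, as log2 signal minus the array's 75th percentile, for uninjured glomeruli, normal podocytes and podocytes at day 4 and day 7 after LMB2; dots are arrays, bars are mean ± SD and each panel has its own axis. Psap at day 4 and day 7 lies at 3.92 to 4.92 and 3.66 to 4.31, below the 5.88 to 6.41 of normal podocytes, and Galc steps down from 2.31 to 2.64 to 1.55 to 2.01 and 0.66 to 1.05.

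Of the 8 membrane proteins, 6 were higher in podocytes and 2 lower, 1 fell at day 4, and 2 rose and 5 fell at day 7. Lamp1, the abundant glycoprotein that lines the lysosome and has 4 copies of CACGTG in the promoter shown above, read 7.95, 7.93, 8.0 and 7.87 in glomeruli and 8.47, 8.32, 8.30 and 8.21 in normal podocytes. It read 8.27, 8.43, 8.26 and 8.20 at day 4 and 8.22, 8.09, 8.12 and 7.99 at day 7. The glomerular arrays lay below normal podocytes, while the podocyte groups overlapped. Lamp1 was 0.39 ± 0.08 higher in podocytes, was not called at day 4 (-0.03 ± 0.08) and fell by 1.16-fold at day 7 (-0.22 ± 0.08, limma adjusted p = 0.0326), a call that ended without normal podocyte replicate 1 or 2 or day 7 replicate 2, 3 or 4 (-0.22 to -0.17). Lamp2, its relative with a part in autophagosome fusion, was higher in podocytes (0.85 ± 0.10) and fell at day 7 (-0.48 ± 0.10). Its other probe was called lower at day 4 (-0.47) and from day 4 to day 7 (-0.29) as well.

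Cd63, a tetraspanin of late endosomes and lysosomes, read 7.54, 7.24, 7.29 and 7.55 in glomeruli and 6.83, 6.56, 6.70 and 6.75 in normal podocytes. It read 6.77, 6.37, 6.40 and 6.62 at day 4 and 7.37, 7.57, 7.54 and 7.57 at day 7. Day 7 lay above all normal and day 4 podocyte arrays and overlapped the glomerular arrays. Cd63 was lower in podocytes than in glomeruli (-0.70 ± 0.11), was not called at day 4 (-0.17 ± 0.11), and rose at day 7 (0.81 ± 0.11, limma adjusted p = 2.22e-05) and from day 4 to day 7 (0.97 ± 0.11, adjusted p = 2.20e-05).

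Mcoln1, a calcium channel of the lysosome and a target of TFEB with 2 copies of CACGTG shown above, was higher in podocytes (1.03 ± 0.09) and fell at day 4 (-0.44 ± 0.09), day 7 (-0.80 ± 0.09) and between them (-0.35 ± 0.09). Ctns, the cystine exporter lacking in cystinosis, was higher in podocytes (1.11 ± 0.11), was not called at day 4 (-0.03) and fell at day 7 (-0.70 ± 0.11), with -0.67 ± 0.11 between the times. Npc1, which exports cholesterol handed over by Npc2, was higher in podocytes (0.80 ± 0.17) and fell at day 7 (-0.44 ± 0.17), a call that ended without normal podocyte replicate 1, 2 or 4 or day 7 replicate 2 or 3 (-0.47 to -0.32). Cln3, the member with the full CLEAR palindrome, was higher in podocytes (0.61 ± 0.11) and rose at day 7 (0.38 ± 0.11); its other probes changed by 0.98, which was called, and -0.08, which was not. Scarb2, the receptor that carries glucocerebrosidase to the lysosome, was lower in podocytes (-0.38 ± 0.11) and was called at neither time (-0.18 and -0.15).

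The transcription factors Tfeb and Tfe3 were both higher in podocytes and moved in opposite directions from day 4 to day 7 by the probes used. Tfeb read 0.26, 0.05, 0.13 and 0.19 in glomeruli and 0.94, 0.63, 0.35 and 0.69 in normal podocytes. It read 0.14, 0.27, 0.53 and 0.15 at day 4 and 0.05, -0.22, -0.24 and -0.03 at day 7. Day 4 overlapped normal podocytes, and day 7 lay below both. Tfeb was 0.49 ± 0.13 higher in podocytes, fell at day 4 (-0.38 ± 0.13, limma adjusted p = 0.03) and day 7 (-0.76 ± 0.13, adjusted p = 0.000122), and fell between the times (-0.38 ± 0.13, adjusted p = 0.0307).

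Tfe3 read 3.14, 3.04, 3.41 and 3.07 in glomeruli and 3.79, 3.54, 3.93 and 3.82 in normal podocytes. It read 3.60, 3.86, 3.75 and 3.58 at day 4 and 3.95, 4.02, 4.03 and 3.96 at day 7. Day 7 was the highest group and did not overlap normal or day 4 podocytes. Tfe3 was 0.61 ± 0.11 higher in podocytes, was called neither at day 4 (-0.07 ± 0.11) nor at day 7 (0.22 ± 0.11, limma adjusted p = 0.0879), and rose between the times (0.29 ± 0.11, adjusted p = 0.0474). The day 4 call of Tfeb ended without any of replicates 1, 2 and 4 of either group (-0.39 to -0.29), and its call between the times without replicate 2 or 3 of either day (-0.38 to -0.30). The call of Tfe3 between the times held without day 4 replicate 2 and ended without any other array of these days (0.25 to 0.31). Its other probe changed by 0.11 there (limma adjusted p = 0.537), and in a fit over all probes the probe used was not called either (adjusted p = 0.0503). These are mRNA levels on ribosomes and say nothing of where the factors are in the cell.

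The other genes of lysosome make-up and control were followed in 6 lists of 92 genes, of which 90 were measured. In podocytes 61 were higher and 15 lower, at day 4 6 rose and 29 fell, at day 7 9 rose and 54 fell, and between the times 6 rose and 29 fell. The shares called higher and lower were 67.8% and 16.7% in podocytes (51.6% and 27.6% of all genes), 6.67% and 32.2% at day 4 (12.1% and 21.6%), 10% and 60% at day 7 (22.0% and 36.3%), and 6.67% and 32.2% between the times (14% and 18.6%). The medians were 0.63 in podocytes, -0.24 at day 4, -0.46 at day 7 and -0.21 between the times. The 29 falls at day 4 became 19 without normal podocyte replicate 1 or day 4 replicate 4, and 18 with the median of the genes tested set to 0. Some calls in these lists ended when a single array was left out. At day 4 they included the falls of Sort1, Sumf1, Nagpa, Atp6v0e2, Hgsnat, Cd164, Glmp and Tpcn1. The day 4 falls of Lamtor1, Lamtor4 and Mitf and the rise of Lamtor3 were among them too. At day 7 they included the falls of Gga2, Atp6v0a1, Tcirg1, Mtor and Arsg. In podocytes they included Atp6v1b2, Ctsc, Gga3, Gnptg and Mtor. Glmp and Gnptg turned sign in podocytes under quantile normalization.

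Of the 10 genes that sort enzymes to the lysosome, 8 were higher in normal podocytes, 5 fell at day 4, 9 fell at day 7 and none rose at either time. All genes were called higher in podocytes in 51.6%, and lower at day 4 and day 7 in 21.6% and 36.3%. Sort1, the receptor that carries prosaposin, was 1.08 ± 0.12 higher in podocytes and fell at day 7 (-1.02 ± 0.12) and between the times (-0.64 ± 0.12). Sumf1, the activator of all sulfatases, was 1.07 ± 0.10 higher in podocytes. Gga1, an adaptor for mannose 6-phosphate receptors, fell at day 4 (-0.61 ± 0.14) and day 7 (-0.77 ± 0.14), M6pr, the small receptor itself, fell at day 4 (-0.41 ± 0.10), and Gnptab, which makes the mannose 6-phosphate tag, fell from day 4 to day 7 (-0.38 ± 0.11).

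Of the 22 V-ATPase genes, whose products acidify the lysosome, 16 were higher in podocytes and 4 lower, 1 rose and 5 fell at day 4, and 2 rose and 9 fell at day 7. The shares lower, 22.7% at day 4 and 40.9% at day 7, were near the 21.6% and 36.3% of all genes, and the list's median at day 4 was -0.01. Atp6v0a1, a membrane subunit, and Atp6ap1, an accessory subunit, led in podocytes (1.64 ± 0.10 and 1.37 ± 0.10). Atp6ap1 stood at 5.21, 5.20, 5.13 and 5.06 in normal podocytes, 4.57, 4.46, 4.16 and 4.19 at day 4 and 3.97, 3.71, 4.0 and 3.95 at day 7, 3 groups without overlap. It fell at day 4 (-0.80 ± 0.10) and day 7 (-1.24 ± 0.10). Atp6v1b2 fell at day 4 (-0.82 ± 0.15), Atp6v1e1 at day 7 (-0.83 ± 0.08) and from day 4 to day 7 (-0.50 ± 0.08), and Atp6ap2 from day 4 to day 7 (-0.46 ± 0.09).

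Atp6v1c2, a C subunit variant found mainly in kidney and lung epithelia, rose most of the list after LMB2. It stood at -0.31, -0.42, -0.70 and -0.20 in glomeruli and -6.26, -4.69, -3.76 and -4.21 in normal podocytes, where it was well above background on 1 of 4 arrays. It stood at -1.92, -1.95, -0.82 and -0.87 at day 4 and -1.37, -0.85, -0.96 and -1.42 at day 7, above all normal podocyte arrays and below all glomerular arrays. The changes were -4.32 ± 0.43 in podocytes against glomeruli, 3.34 ± 0.43 at day 4 (limma adjusted p = 3.86e-05) and 3.58 ± 0.43 at day 7 (adjusted p = 6.97e-06). With 3 of the 4 normal podocyte arrays not above background, the size of these differences rests mainly on dim signals. Atp6v0c, a proteolipid subunit, also rose at day 7 (0.31 ± 0.12), a call that ended without normal podocyte replicate 3 or 4 or day 7 replicate 1 or 3 (0.22 to 0.31) and turned sign with the array median set to 0. Atp6v0d2 was not well above background on any podocyte array and was at least 6.52-fold higher in glomeruli (limma adjusted p = 3.24e-06), a bound that sets the glomerular mean against the dimmest signal above background on each podocyte array or the probe's own value, whichever is higher.

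Among the 17 genes of mTORC1 and TFEB regulation at the lysosome, 11 were higher in podocytes and 3 lower, 3 rose and 5 fell at day 4, and 3 rose and 12 fell at day 7. The shares called higher and lower were 64.7% and 17.6% in podocytes (51.6% and 27.6% of all genes), 17.6% and 29.4% at day 4 (12.1% and 21.6%), and 17.6% and 70.6% at day 7 (22.0% and 36.3%). Rragd, a Rag GTPase that recruits mTORC1 and is itself a known TFEB target, read -1.49, -1.85, -1.11 and -0.89 in glomeruli and -3.32, -2.99, -2.70 and -2.57 in normal podocytes. It read -0.73, -0.88, -0.43 and -0.34 at day 4 and -1.29, -1.0, -1.56 and -1.44 at day 7. All 8 LMB2 arrays lay above all normal podocyte arrays, with day 4 above day 7. Rragd rose 4.92-fold at day 4 (2.30 ± 0.22, limma adjusted p = 1.90e-06) and 2.98-fold at day 7 (1.57 ± 0.22), fell between the times (-0.72 ± 0.22; not called without day 4 replicate 3 or 4 or day 7 replicate 3, -0.67 to -0.64) and was -1.56 ± 0.22 in podocytes against glomeruli.

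Fnip1, the partner of folliculin that acts on Rragc and Rragd, read 1.73, 1.93, 1.95 and 2.10 in normal podocytes, 3.54, 3.64, 4.21 and 4.38 at day 4 and 4.27, 3.87, 4.09 and 3.58 at day 7. It rose about equally at both times (2.01 ± 0.19 and 2.02 ± 0.19), and all LMB2 arrays lay above all normal ones. Flcn, folliculin itself, was the largest fall of this list from day 4 to day 7 (-1.0 ± 0.15), followed by Slc38a9, the arginine sensor (-0.79 ± 0.15). Slc38a9 (-1.09 ± 0.15) and Rragb (-1.06 ± 0.23) fell most at day 7, and Rragc (-0.62 ± 0.13) and Lamtor5 (-0.51 ± 0.14), a part of the Ragulator scaffold, at day 4. Rragb (2.62 ± 0.23, above background on 2 of 4 glomerular arrays) and Rptor (1.21 ± 0.11), the mTORC1 adaptor, led in podocytes. Tfec, a relative of Tfeb known from macrophages, was not well above background on any podocyte array and was at least 3.81-fold higher in glomeruli (limma adjusted p = 1.98e-06).

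Of 20 further lysosomal enzymes measured, 10 were higher in podocytes and 6 lower, 7 fell at day 4 and none rose, and 13 fell and 1 rose at day 7. The shares lower were 35% and 65% at these times, against 21.6% and 36.3% of all genes, and 50% were higher in podocytes, against 51.6%. Cpq, a carboxypeptidase, and Hgsnat, which acetylates heparan sulfate, led in podocytes (2.62 ± 0.13 and 1.53 ± 0.10), while Acp5 (-3.80 ± 0.74), the acid phosphatase of osteoclasts and macrophages, and Scpep1 (-3.14 ± 0.33), a serine carboxypeptidase, were lowest. Ctsc, the dipeptidyl peptidase that activates granule proteases, fell at day 4 (-1.09 ± 0.31) and day 7 (-1.40 ± 0.31). Aga fell at day 4 (-0.89 ± 0.18) and Naaa at day 7 (-1.35 ± 0.18) and from day 4 to day 7 (-0.85 ± 0.18), where Ctso also fell (-0.49 ± 0.17; not called without day 4 replicate 2 or 3 or day 7 replicate 1, 2 or 3). Scpep1 rose at day 7 (0.91 ± 0.33) and between the times (0.89 ± 0.33), as did Ctsw, a cathepsin of lymphocytes, between the times (0.45 ± 0.13; 0.38 and not called without day 7 replicate 1). The day 7 call of Scpep1 ended without normal podocyte replicate 1, 2 or 3 or day 7 replicate 4 (0.64 to 0.90), and its call between the times held without day 4 replicate 1 and ended without any other array (0.62 to 0.99).

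Of 18 further membrane proteins measured, 14 were higher in podocytes and 2 lower, 1 rose and 6 fell at day 4, and 2 rose and 11 fell at day 7. The shares were 77.8% higher in podocytes (51.6% of all genes) and 33.3% and 61.1% lower at day 4 and day 7 (21.6% and 36.3%). Abca2 and Abcb9, transporters of the ABC family, led in podocytes (2.22 ± 0.18 and 1.66 ± 0.09), and Laptm5, a gene of leukocytes that also stands in the leukocyte marker list, was lowest (-4.62 ± 0.56), followed by Tmem192 (-0.47 ± 0.09). Laptm4a fell at day 4 (-0.64 ± 0.12) and day 7 (-1.23 ± 0.12), as did Mfsd8 (-0.57 ± 0.14 and -1.24 ± 0.14). Lmbrd1, the exporter of cobalamin, rose at day 4 (1.03 ± 0.13) and fell from day 4 to day 7 (-0.80 ± 0.13), and Abca2 fell in the same interval (-0.71 ± 0.18). Litaf rose at day 7 (0.71 ± 0.15) and between the times (0.75 ± 0.15), as did Sidt2, a nucleic acid transporter (0.58 ± 0.18 and 0.80 ± 0.18).

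Of the 3 endogenous cathepsin inhibitors, 2 were higher in podocytes, 1 rose and 1 fell at day 4, and 1 rose at day 7. Cst6, cystatin E/M, which inhibits Lgmn and Ctsl, read -4.03, -3.19, -4.35 and -3.89 in glomeruli and -4.08, -4.09, -4.20 and -5.0 in normal podocytes, where it was above background on 3 of 4 arrays. It read -3.65, -3.31, -3.67 and -3.07 at day 4 and -1.53, -0.62, -0.36 and -0.80 at day 7. All day 7 arrays lay above all others. Cst6 rose at day 4 (0.92 ± 0.29, limma adjusted p = 0.025), day 7 (3.52 ± 0.29, adjusted p = 2.24e-07) and between the times (2.60 ± 0.29). The day 4 call ended without normal podocyte replicate 4 or day 4 replicate 2 or 4 (0.70 to 0.88). Cstb, the cytosolic inhibitor stefin B, was higher in podocytes (0.60 ± 0.09), fell at day 4 (-0.75 ± 0.09) and rose from day 4 to day 7 (0.75 ± 0.09), and Cst3, cystatin C, was higher in podocytes (0.69 ± 0.11) and called at neither time.

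**Figure D3:**
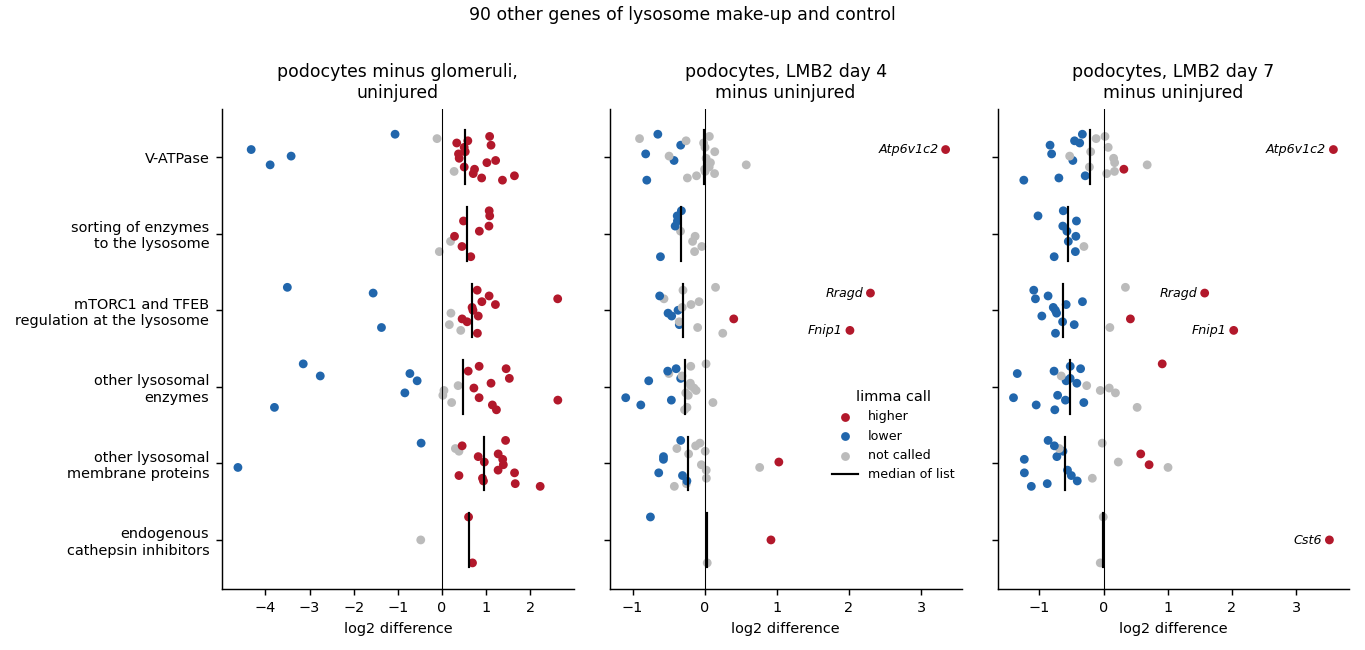
Change of 90 other lysosomal genes in 6 lists for the same 3 comparisons on a log2 scale; each dot is a gene coloured by call, black bars are list medians, and names mark changes over 1.5 in size after LMB2. Most genes lie left of 0 at day 7, while Atp6v1c2, Rragd, Fnip1 and Cst6 lie at 3.58, 1.57, 2.02 and 3.52.

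Genes in the marker lists of other cells moved with part of these results, and whether their RNA came from other cells was not tested. At day 7, 4 of 10 mesangial and smooth muscle markers were higher than in normal podocytes (Des 3.02 ± 0.16, Acta2 1.60 ± 0.32, Tagln 6.01 ± 0.25 and Cnn1 2.78 ± 0.80) and none was lower. Pdgfrb (-0.47), Itga8 (-0.22), Gata3 (-0.07), Agtr1a (0.12), Myh11 (0.46) and Ren1 (0.84) were not called. The median change of the list was 0.65, and the mean of the list ran from 1.23 to 1.80 over the day 7 arrays against -0.30 to 0.53 over normal podocytes. That mean rests largely on the 4 called genes. At day 7 the means of Tagln (10.09) and Des (1.72) stood above their means in uninjured glomeruli (4.99 and 1.33). Those of Acta2 (2.81) and Cnn1 (-1.50) stood below theirs (4.70 and -0.08). Of 6 parietal epithelial markers, 5 were higher at day 7, with an array mean of 0.33 to 1.73 against -0.22 to 0.10. In uninjured mice Cldn1 of this list was higher in podocytes than in glomeruli (1.22 ± 0.36; 51.6% of all genes), and 4 were lower (27.6%). From day 4 to day 7, 5 mesangial and 4 parietal markers were higher and none lower. Of 10 endothelial markers, 2 were lower at day 4, 2 were higher and 2 lower at day 7, and 4 were higher and 1 lower from day 4 to day 7. Of all genes, 12.1% were called higher and 21.6% lower at day 4, 22.0% and 36.3% at day 7, and 14% and 18.6% between the times. These shares are the background of every marker count here and below. The endothelial shares at day 4 (20% lower) and day 7 (20% higher and 20% lower) lay under them. At day 7 and from day 4 to day 7 Ctsk and Cd63, which were lower in normal podocytes than in glomeruli, rose, and the part of other cells in that rise was not tested.

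Podocyte markers fell in the same arrays: 5 of 10 fell and 1 rose at day 4, and 8 of 10 fell and none rose at day 7, with a median of -1.17. Of the 12 leukocyte markers, 2 were called higher at day 4 (C1qa and Csf1r, 0.58 ± 0.20), and at day 7 C1qa was called higher and 1 was lower. C1qa was well above background on 0 of 4 normal podocyte arrays, 1 of 4 at day 4 and 2 of 4 at day 7, so no size is given for it. None of 10 proximal tubule markers was called after LMB2, and all 10 were lower in podocytes than in glomeruli. Every marker of the mesangial, parietal, endothelial and proximal tubule lists was well above background on at least 1 array of each podocyte group, while 1 leukocyte marker in normal podocytes, 1 at day 4 and 2 at day 7 were so on none. The call of Csf1r ended without normal podocyte replicate 2, 3 or 4 or day 4 replicate 1 or 4 (0.48 to 0.57).

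**Figure D4:**
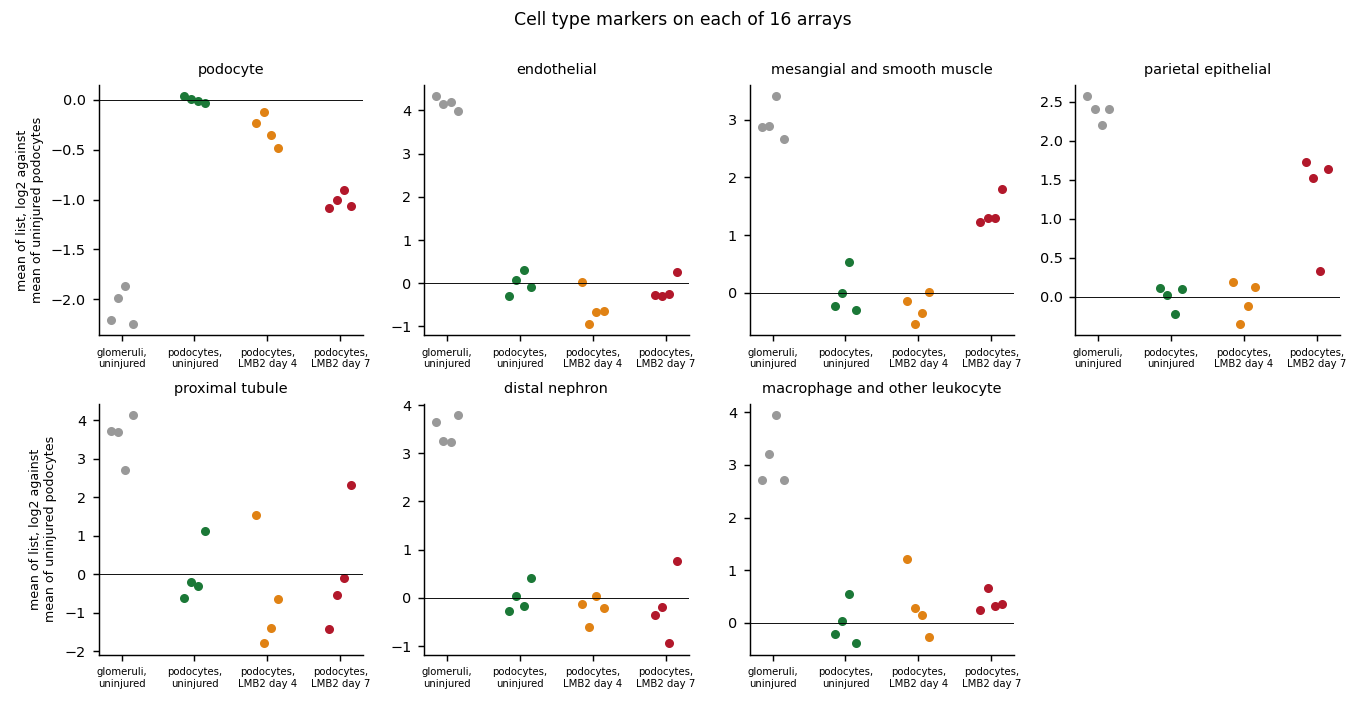
Mean of each marker list on each of the 16 arrays, as log2 against the mean of normal podocytes; dots are arrays and each panel has its own axis. Means of the mesangial and parietal lists are raised on the day 7 arrays, at 1.23 to 1.80 and 0.33 to 1.73. The mesangial mean rests largely on Des, Acta2, Tagln and Cnn1. Single arrays stand out in the proximal tubule list.

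The change of podocytes against glomeruli was set beside the change from day 4 to day 7, which shares no array with it. Across the 45 members the pair gave Pearson's r of -0.45 and Spearman's rho of -0.47, and without Ctss and Galc r was -0.48 and rho -0.39 over 43. Across all 14574 genes the values were -0.45 and -0.50, close to those of the members. These are descriptions across genes of shared arrays, which are not independent replicates. Galc, Ctsl, Gaa, Manba, Ctns and Mcoln1 were higher in podocytes by over 1 and fell between the times, Naglu (0.01) and Ctsh (0.25) were as high in podocytes and were not called, and Ctsk and Cd63 lay at the other end.

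**Figure D5:**
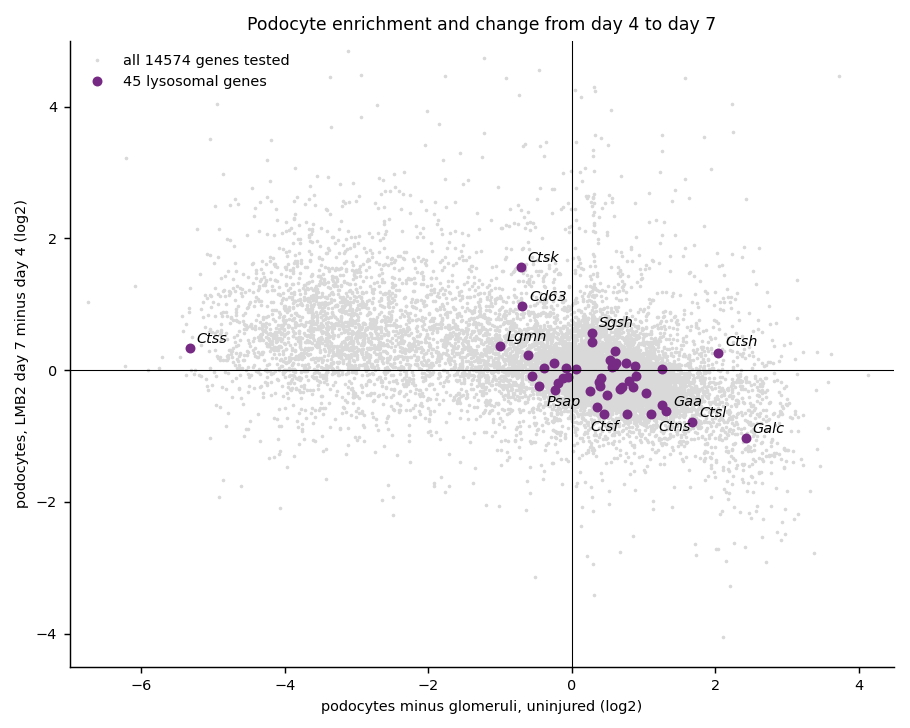
Change of podocytes against glomeruli (x axis) and from day 4 to day 7 after LMB2 (y axis), both log2, for 45 lysosomal genes in colour and all 14574 genes in grey; a few of the other genes lie outside the axes. Galc lies lower right at 2.42 and -1.03, and Ctsk upper left at -0.71 and 1.56.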

How the data were processed

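Polysome RNA of 4 groups of 4 samples was measured on 16 Agilent arrays of 1 colour. Per the file headers, each deposited file holds processed intensities on a linear scale that Feature Extraction 11.5.1.1 had background-subtracted and detrended, with no normalization between arrays, beside flags for spots well above background. The authors' deposited value table covers 39430 probes in log2, each column a shifted copy of an array's log2 processed intensity; what set the shift is not given in the sources used here, and 6 of 16 columns, replicates 1 to 3 of both normal groups, matched another replicate of the same group. Replicate numbers here are those of the scanner files, and the pairing of the normal groups and arrays left out by number rest on them. Control and outlier spots were left out (59305 spots per array were no controls). The log2 intensity was averaged over spots of a probe, and each array's 75th percentile of these probe means was subtracted. Before outlier spots were left out, the 75th percentile of the intensities was 227 to 415 over the arrays.

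Probes were named by accession through a RefSeq gene table (assembly GRCm38.p6), which named 26582 of 55681 probes. A probe was kept where some group had it well above background on each of its 4 arrays, and the brightest stood for a gene, which gave 14574 genes. limma 3.58.1 (R 4.3.3) fitted the 4 group means over all 16 arrays (lmFit, eBayes), and p-values were adjusted by Benjamini-Hochberg over all genes. No set test was made. The labels number the replicates and state no pairing. Normal podocyte and glomerular arrays of the same number were taken as pairs, since deviations from the group means correlated in every such pair (0.42 to 0.51). The main counts, SEs and p-values of podocytes against glomeruli come from the fit without this pairing. The slide as a block could not be fitted for LMB2 against normal. The 45 genes and the other lists were chosen with earlier results of these data known. All members are given, with full per-array values for the largest 3 called rises and falls of each comparison and for Psap, Lamp1, Ctsd, Tfeb and Tfe3; of other lists the largest 2 called rises and falls are named, and any others named beside them were chosen after their values were seen. Scaling, background correction, filter, probe choice, arrays left out and the authors' table were varied. The number of arrays limits the precision.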

Additional observations from a re-analysis of the deposited data

Results flagged for a closer look

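Single arrays stood apart from the other 3 of their group, by the gap to the nearest array over the range of the group, in 7 of 180 sets of 4 values, where chance gives about 1 in 20. On normal podocyte replicate 1, Ctsf (2.96), Neu1 (5.72) and Galc (2.64) stood above the other 3 arrays. Cln3 was low on normal podocyte replicate 3 (2.78), Lgmn was high on day 4 replicate 1 (5.53), Cd63 was low on day 7 replicate 1 (7.37), and Mcoln1 was high on day 7 replicate 4 (4.57). Day 4 replicate 1 was also high in proximal tubule and leukocyte markers, and the part of those cells in the Lgmn value was not tested.

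The changes from normal at day 4 and day 7 differed for 15 members by limma's test of day 7 against day 4, in which the shared normal arrays cancel. Of all genes, 18.6% were called lower and 14% higher in this test, near the members' 22.2% and 11.1%. Those with a lower level at day 7 were Galc (-1.03), Ctsl (-0.79), Ctsf (-0.67), Ctns (-0.67), Idua (-0.67), Gaa (-0.62), Manba (-0.53), Tfeb (-0.38), Mcoln1 (-0.35) and Ctsd (-0.25). Those with a higher level were Ctsk (1.56), Cd63 (0.97), Sgsh (0.57, against -0.53 for its other probe), Grn (0.42) and Tfe3 (0.29). The calls of Ctsd, Idua, Sgsh, Tfeb and Tfe3 ended when certain single arrays were left out.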

How the results depend on the processing

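Of the members called, 24 of 35 in podocytes against glomeruli, 13 of 22 at day 4, 24 of 32 at day 7 and 7 of 15 between the days kept their direction and call under all 21 alternatives that applied. Leaving out single arrays gave, for members higher, lower and their median, 25 to 27, 8 to 10 and 0.36 to 0.53 in podocytes, 1 to 3, 14 to 19 and -0.34 to -0.24 at day 4, 5 to 7, 25 to 28 and -0.50 to -0.40 at day 7, and 3 to 6, 7 to 10 and -0.179 to -0.0457 between the days. Setting each array's median to 0, over all probes, moved the median of all genes from 0.38, -0.14 and -0.14 to 0.70, -0.39 and -0.47. This scaling shifts every gene of an array alike. The members' medians relative to that of all genes therefore cannot change, and this tests nothing. In podocytes it gave 3 members lower and a median of 0.77, at day 4 1 higher, 31 lower and -0.54, at day 7 3 higher and -0.78, and between the days 2 higher and -0.19. There Gla (0.23) and Glb1 (0.065) turned higher in podocytes. Quantile normalization gave a podocyte median of 0.22 with either background correction (Grn -0.073, and -0.063 with normexp, where the median between the days was -0.060). Setting the median of the genes tested to 0, chosen after seeing the data, gave a median of -0.34 at day 7. The split of all genes called higher and lower moved from 1759 and 3155 to 2026 and 2087 at day 4 and from 3202 and 5296 to 3719 and 4441 at day 7, and with the array median at 0 to 1184 and 5810, and 1969 and 7387 (podocytes 7516 and 4019 to 8845 and 3352). At day 4, 1 member was higher with no filter or with only the 8 arrays compared. Without the 3 arrays high in proximal tubule genes, chosen after seeing the data, the day 7 median was -0.53 and 3 members were higher between the days, as without 2 of them (median -0.046) and with the mean of probes. The replicate block paired the normal groups (28 members higher and 8 lower). The other comparisons share only numbers, with correlations of -0.41 to 0.49, and the block gave 0 higher and 13 lower at day 4, 3 higher at day 7, and 2 higher and 5 lower between the days (all genes 1242 and 1199, 2899 and 4198, 1323 and 1363). Of the 90 other genes, those lower at day 4 went from 29 to 12 with the block and 47 with the array median at 0, and the filter on all 16 arrays took those lower in podocytes from 15 to 9 and all genes from 4019 to 2573. The cause of these shifts was not tested. The slide as a block was not run, since each slide holds only uninjured or only LMB2 arrays. Dim probes, such as Ctss in podocytes, are limited by background.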
